A study of Homo sapiens with 12 samples.

Results

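DU145 is a human prostate cancer cell line with epithelial features. The response described here is that of DU145 cells to forced expression of ATOH8, read from RNA sequencing of 3 libraries with the overexpression (oeATOH8, genotype OE ATOH8) and 3 libraries of the overexpression control (oeCTRL, genotype OE CTRL). All 6 libraries were DU145, no drug is named for any of them, and the vector, its promoter, the number of clones and the time after introduction are not given in the sources used here. The same series holds 6 further DU145 libraries, from an RSL3 experiment, in another table. Members were all rows of the deposited ATOH8 table, 1424 of the 3234 rows of both tables, and comprised 1152 Ensembl genes and 272 loci assembled by the authors. GENCODE v29 gives all 1152 Ensembl genes as protein coding, and they are 5.77% of its 19951 protein-coding genes, the share against which the listed part of each gene group below can be read. The table holds only genes that the authors called changed, so a gene outside it cannot be taken as unchanged, and a count of listed genes in one direction describes the authors' calls.

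ATOH8 is a basic helix-loop-helix transcription factor related to the Drosophila protein Atonal. Proteins of this class bind E-box sequences as dimers, often with an E-protein partner, and ATOH8 is known for roles in development and as a target of BMP signalling. The question named in the series title is how ATOH8 acts on SCD, an enzyme that puts a double bond into saturated fatty acyl chains, in relation to ferroptosis, a form of cell death driven by lipid peroxidation.

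ATOH8 (ENSG00000168874, chromosome 2, 85751344 to 85788066, GRCh38) was the first check of the labels. It had 13, 10 and 4 reads in oeCTRL replicates 1, 2 and 3, and 76508, 72569 and 76043 reads in oeATOH8 replicates 1, 2 and 3. All 3 oeATOH8 libraries were far above all 3 oeCTRL libraries, and ATOH8 took 3.44%, 3.48% and 3.46% of the listed reads in them. The ratio of group means was 8225, which edgeR fitted as a log2 fold change of 12.98 (SE 0.17, adjusted p = 2.62e-11). Transcripts from the introduced copy and from the cell's own gene cannot be told apart in these counts.

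Of the 1424 rows, 589 (41.4%) were higher in oeATOH8 and 835 (58.6%) were lower. The words rose and fell are used below for rows with an edgeR quasi-likelihood adjusted p under 0.05 when all 75204 annotated genes and assembled loci are counted as tests. By that rule 1167 rows (82%) passed, 507 upward (35.6%) and 660 downward (46.3%). Adjusted over the listed rows alone, all 1424 (100%) passed, and in 1419 (99.6%) the 3 libraries of one group did not overlap those of the other. Among the 1152 Ensembl genes 423 rose (36.7%) and 557 fell (48.4%), in all 980 (85.1%). Among the 272 assembled loci 84 rose and 103 fell. These shares are the background for each gene group below. The direction of no row changed with the scaling of the libraries, but the balance of calls did. Of the rows that passed, 43.4% were higher with the scaling used here, 32.7% with libraries scaled to equal totals over listed genes and 80.4% with relative log expression over listed genes. These alternatives moved the median log2 ratio of all listed rows by -0.46 and 0.91, and TMM moved it by 0.31. No row lay within 1.00 of 0 with the scaling used here, so shifts of this size could not reverse a direction.

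**Figure D1:**
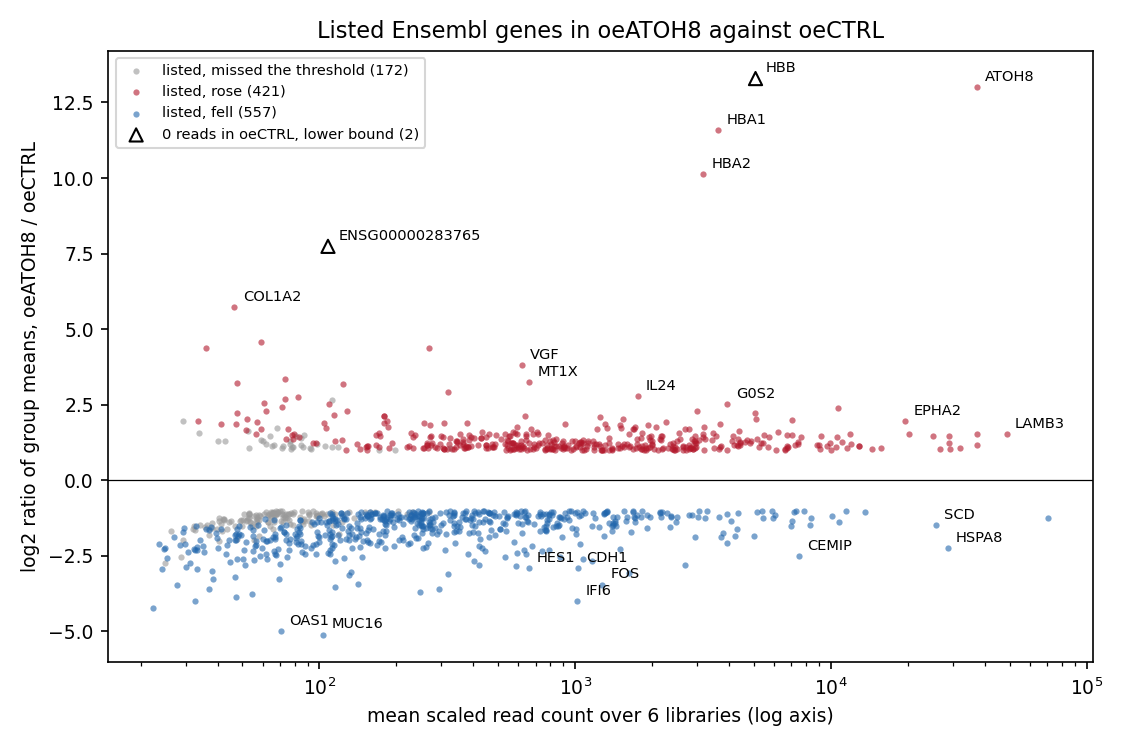
Each point is 1 listed Ensembl gene, with its mean scaled read count over the 6 libraries on a log axis and the log2 ratio of the oeATOH8 mean to the oeCTRL mean, coloured by whether it rose, fell or missed the threshold (triangles: 0 reads in oeCTRL, drawn at a lower bound). No gene lies within 1.00 of 0, and ATOH8 and the 3 globin genes stand above every other gene.

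The sizes of the changes were moderate for most genes. The median ratio was 2.32 for the 458 higher Ensembl genes (quartiles 2.12 and 2.78) and, as oeCTRL over oeATOH8, 2.65 for the 694 lower genes (quartiles 2.24 and 3.61). More than 4-fold differences were seen in 37 higher and 132 lower genes. Just inside the limit of the authors' table lay GPS2, a subunit of the NCoR corepressor complex, at 2.00-fold higher, and AREL1, an E3 ubiquitin ligase gene, at 2.00-fold lower. Values just outside the limit are not known, since such genes were not listed.

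Genes of the interferon response made up the most numerous lower group. Interferons signal through transcription factors, IRF9 among them, that bind interferon-stimulated response elements in front of antiviral genes. The table held 31 of 64 interferon-stimulated genes, every one of these 31 was lower in oeATOH8, and 29 fell (median log2 ratio of the listed members -1.68, against -1.10 over all listed rows). All 29 were also called in each of the 6 fits that left out 1 library. With relative log expression 14 fell. IFI6 (ENSG00000126709), a mitochondrial and membrane protein induced by type I interferon, had 1907, 1927 and 1864 oeCTRL reads against 88, 134 and 143 oeATOH8 reads. It fell 15.9-fold (log2 fold change -3.99, SE 0.15, edgeR adjusted p = 5.73e-08), with each oeATOH8 library far below each oeCTRL library. IFIT1 (ENSG00000185745), which binds viral RNA lacking host cap methylation, had 1537, 1442 and 1458 reads against 292, 220 and 264 and fell 5.85-fold. IFIT3 (ENSG00000119917), its partner, had 2110, 2073 and 2137 reads against 661, 603 and 747 and fell 3.22-fold.

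The stretches of promoter that hold the letters of the response element are shown for these 3 genes, as examples of a group that moved together. They come from the RefSeq promoter table (GRCh38.p14), lie wholly before the annotated start and are written 5′ to 3′ on the gene's strand, with capitals for the motif searched, GAAA, any 2 bases and GAAA again, read on either strand.
IFI6 promoter, chr1:27672246-27672378 (- strand): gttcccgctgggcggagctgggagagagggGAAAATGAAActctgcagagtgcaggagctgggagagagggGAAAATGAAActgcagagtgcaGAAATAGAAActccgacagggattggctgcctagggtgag
IFIT1 promoter, chr10:89392477-89392559 (+ strand): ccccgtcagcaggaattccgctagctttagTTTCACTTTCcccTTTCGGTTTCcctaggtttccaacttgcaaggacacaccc
IFIT3 promoter, chr10:89327811-89327914 (+ strand): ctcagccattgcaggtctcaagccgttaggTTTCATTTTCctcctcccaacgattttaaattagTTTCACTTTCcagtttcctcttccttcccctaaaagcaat
IFI6 held 3 matches, IFIT1 held 2 and IFIT3 held 2 in these stretches. Only 20 of the 31 listed interferon-stimulated genes had an entry in the table, too few to compare the list with other genes. Of those 20, 14 held the letters between 250 bases before and 50 after the start, and so did 996 of all 27305 promoters (3.65%). A match of letters is not evidence that a factor binds there.

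The antiviral enzymes OAS1, OAS2 and OAS3, which make the activator of RNase L, stand side by side on chromosome 12 and all fell. OAS1 (ENSG00000089127) had 95, 153 and 156 oeCTRL reads against 0, 5 and 8 oeATOH8 reads, 31.9-fold lower, or 53.4-fold without oeATOH8 replicate 3. OAS2 went from 215, 219 and 193 reads to 28, 14 and 14, and OAS3 from 5864, 5424 and 6051 to 1803, 1852 and 1636. The dynamin-like GTPases MX1 (3130, 2576 and 2904 reads against 339, 412 and 305) and MX2 fell 8.29-fold and 5.20-fold. Sensors of viral RNA were part of the group. IFIH1 (MDA5) fell 2.64-fold, DHX58 3.11-fold and the kinase EIF2AK2 (PKR) 2.81-fold, the last from 11919, 11810 and 12371 reads to 4523, 4125 and 4502. SAMD9 fell 4.95-fold, GBP1 4.60-fold, the ubiquitin-like modifier ISG15 2.56-fold and IFITM3, which blocks viral entry, 3.19-fold. The remaining 2 listed members were lower and missed the threshold. RSAD2 had 37, 56 and 45 reads against 14, 17 and 5, and IFI27 had 97, 72 and 56 against 36, 11 and 13.

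The signalling machinery upstream was represented by 4 of 31 list members, and all 4 fell. IRF9 (ENSG00000213928) was variable, with 264, 352 and 193 reads against 31, 113 and 42. It was 4.38-fold lower, 7.70-fold without oeATOH8 replicate 2, and missed the threshold in 4 of the 6 fits that left out 1 library. TLR3, an endosomal sensor of double-stranded RNA, fell 3.17-fold. With TMM and with relative log expression, 2 and 1 of these 4 fell, and 2 without oeCTRL replicate 2 or 3. Complement, which interferon also induces in epithelia, had 8 of 33 members listed, of which 5 fell and 1 rose. C3 (1797, 1641 and 1606 reads against 437, 417 and 351) fell 4.27-fold, the factor B gene CFB 3.50-fold, and the C1 protease genes C1R and C1S 3.19-fold and 2.57-fold. The member that rose was PLAU, the urokinase gene, at 2.10-fold. Without oeCTRL replicate 2 or 3, 3 complement members fell, and with relative log expression 2.

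Histone genes were the next most numerous lower group. Most of them encode the replication-dependent histones of S phase, whose messages end in a stem-loop and carry no poly(A) tail. Of 84 list members 23 were listed, 22 lower and 1 higher, and 20 fell (16 of the 21 calls held in all 6 fits without 1 library). With relative log expression 6 fell. H2BC12 (ENSG00000197903) had 4667, 4576 and 4450 oeCTRL reads against 1208, 1206 and 1381 oeATOH8 reads, 3.69-fold lower. The linker histone gene H1-2 had 3402, 3378 and 3543 reads against 1120, 1237 and 1292 and fell 2.89-fold. H2BC4 and H4C8 each fell 5.03-fold, H2BC5 4.12-fold and H4C9 3.34-fold. H3C10 and H4C12 were lower and missed the threshold. Whether the libraries were made with poly(A) selection is not given in the sources used here.

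Heat shock chaperones fell, and those that did had high read counts. Cytosolic chaperones of the HSP70 and HSP90 families fold new and damaged proteins, and HSF1 raises them on stress through heat shock elements. The list joined these with the unfolded protein response of the endoplasmic reticulum. Of its 36 members 7 were listed, all 7 fell, and each stayed called without any 1 library. All 7 were cytosolic chaperones or their J-domain partners. HSPA8 (ENSG00000109971), the constitutive HSP70, had 46003, 45566 and 48438 oeCTRL reads against 10269, 9743 and 10252 oeATOH8 reads. It fell 4.73-fold (log2 fold change -2.24, SE 0.04, edgeR adjusted p = 6.36e-10), with a narrow spread within each group. HSP90AA1 (ENSG00000080824), the inducible HSP90 alpha gene, had 96717, 95703 and 102573 reads against 42072, 42019 and 42891 and fell 2.37-fold. The stress-induced HSPA1A (6524, 6283 and 6015 reads against 1671, 1404 and 1452) fell 4.25-fold and HSPA1B 3.70-fold. HSPA1A and HSPA1B are near-identical copies, so their reads can be split between them. HSPA2 fell 4.54-fold, and the co-chaperone genes DNAJA1 and DNAJB4 fell 2.40-fold and 2.31-fold.

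The HSPA8 promoter is shown because it carries the heat shock element searched, GAA, any 2 bases, TTC, any 2 bases and GAA, read on either strand (capitals), at both ends of the stretch before the start.
HSPA8 promoter, chr11:123062149-123062386 (- strand): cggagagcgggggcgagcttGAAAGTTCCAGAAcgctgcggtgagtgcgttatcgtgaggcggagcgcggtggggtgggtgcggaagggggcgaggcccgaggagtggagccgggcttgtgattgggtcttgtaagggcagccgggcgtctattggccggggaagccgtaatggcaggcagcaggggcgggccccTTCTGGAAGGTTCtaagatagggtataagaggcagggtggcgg
All 7 listed chaperone genes had a promoter entry, and 2 of them (HSPA8 and DNAJA1) held this motif between 250 bases before and 50 after the start, against 0.487% of all 27305 promoters. Matches of each motif were counted by themselves, whether or not they overlap those of another. The same search of the 6 of 7 listed sterol genes with an entry found 0 with the sterol response element searched, ATC, ACCC and CAC in a row, which 0.0476% of all promoters hold. The TEAD motif GGAATG was in 3 of the 5 YAP and TEAD targets with an entry and in 14.0% of all promoters. The E-box CANNTG, the motif of the class ATOH8 belongs to, was in 13 of the 20 interferon-stimulated genes with an entry, 2 of the 7 chaperone genes, 4 of the 6 sterol genes and 3 of the 5 YAP and TEAD targets, and in 68.9% of all promoters.

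SCD and the sterol pathway fell together with part of the antioxidant genes. SCD (ENSG00000099194) had 38026, 36081 and 37906 oeCTRL reads against 13840, 13139 and 14052 oeATOH8 reads. It fell 2.79-fold (log2 fold change -1.48, SE 0.03, edgeR adjusted p = 1.78e-09), and the groups were far apart. ACSL6, which activates long-chain fatty acids, was the only other listed member of the 27 fatty acid synthesis and desaturation genes and fell 3.77-fold. Cholesterol synthesis and sterol control had 7 of 31 members listed, and all 7 fell, also in each fit without 1 library. HMGCS1 (6249, 6326 and 6610 reads against 2331, 1907 and 2198), which makes HMG-CoA, fell 3.05-fold. IDI1 (6543, 6245 and 6674 against 1711, 1852 and 2031), the isopentenyl diphosphate isomerase, fell 3.55-fold. In both genes each oeATOH8 library was below each oeCTRL library, and 99.6% of all listed rows had groups without overlap. The sterol oxidase MSMO1 fell 2.66-fold, the sterol carrier STARD4 2.99-fold and INSIG1, which holds the SREBP complex in the endoplasmic reticulum when sterols are plentiful, 3.62-fold. The listed members also included ABCA1 and ABCG1, which export cholesterol and fell 3.21-fold and 3.69-fold. The median GC content of the 7 genes was 41.1%, and among all listed genes under 45% GC 16.7% were higher.

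The listed triglyceride, lipid droplet and lipase genes moved the other way except for 1. G0S2 (ENSG00000123689), which inhibits the triglyceride lipase ATGL, had 1167, 1126 and 1174 oeCTRL reads against 7083, 6712 and 6513 oeATOH8 reads, and rose 5.73-fold. DGAT1, which makes triglyceride, rose 2.11-fold and ANGPTL4, an inhibitor of lipoprotein lipase, 2.54-fold. PLIN4, a droplet coat protein, fell 4.57-fold from 437, 392 and 442 reads to 108, 92 and 84. These were the 4 of 33 list members in the table.

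Targets of NRF2, the regulator of antioxidant genes, had 6 of 31 members listed, all lower, and 5 fell. PRDX1, a peroxiredoxin, had 14067, 13624 and 13839 reads against 6135, 6157 and 6572 and fell 2.25-fold. HMOX1 (3684, 3405 and 3285 against 1547, 1518 and 1513), which degrades haem, fell 2.31-fold and ABCC2, an export pump, 3.04-fold. AKR1C1 and AKR1C3, aldo-keto reductases that clear lipid aldehydes, fell 2.99-fold and 2.43-fold, while AKR1C2 had 63, 84 and 59 reads against 47, 11 and 16 and missed the threshold. These AKR1C genes share sequence, and their reads can be split between them. With relative log expression none of the 5 calls remained. Of 24 ferroptosis suppressors on the list only these 3 AKR1C genes were in the table, of 24 promoters of ferroptosis only HMOX1, and of 5 response markers 0. GPX4 and TCF3, an E-protein partner of factors of this class, were not listed.

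Genes of epithelial junctions and surfaces were mostly lower. Of 62 members 12 were listed, 10 fell and 2 rose, and 8 of the 12 calls held in all 6 fits without 1 library. CDH1 (ENSG00000039068), which encodes E-cadherin of adherens junctions, had 1870, 1864 and 1647 oeCTRL reads against 276, 227 and 225 oeATOH8 reads. It fell 7.55-fold (log2 fold change -2.92, SE 0.10, edgeR adjusted p = 2.99e-08), with no overlap between the groups, as in 99.6% of all listed rows. CDH3 (P-cadherin) had 2390, 2434 and 2536 reads against 495, 565 and 491 and fell 4.84-fold. The epithelial transcription factor ELF3 fell 3.09-fold, the protease inhibitor SPINT1 2.88-fold and the tight junction gene MARVELD3 3.94-fold. The members that rose were LAMB3 and CLDN1. LAMB3, a laminin chain of the basement membrane, had 26362, 24199 and 23482 reads against 71046, 70488 and 77216 and rose 2.89-fold, and CLDN1, a claudin, rose 2.43-fold. With TMM 7 members fell, with relative log expression 4, and without oeCTRL replicate 1, 6. The keratin gene KRT8, which checks the epithelial label, had 15797, 14747 and 15351 reads against 5873, 6304 and 5962 and fell 2.58-fold. Of 151 keratins and keratin-associated proteins 3 were listed, and the others, KRT10 and KRTAP2-3, rose 2.48-fold and 9.03-fold. The summed reads of the listed epithelial markers (2 of 8, KRT8 and CDH1) were 16611 to 17667 in oeCTRL and 6149 to 6531 in oeATOH8. In bulk libraries fewer cells of a type and less RNA per cell cannot be told apart.

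Of 105 genes of the cadherin superfamily 6 were listed, close to the 5.77% of all protein-coding genes. All 6 fell, among them PCDH12 (3.43-fold) and CELSR2 (2.24-fold). With relative log expression 2 of the 6 fell, with TMM 4, and 4 calls held in all 6 fits without 1 library. Mucins were also lower. MUC16 (CA125) had 197, 224 and 174 reads against 5, 0 and 13, 34.4-fold lower, or 82.5-fold without oeATOH8 replicate 3. MUC1 (728, 594 and 594 against 160, 228 and 197) fell 3.33-fold, and MUC3A and MUC20 were lower and missed the threshold. CEACAM6, an adhesion molecule of epithelia, fell 6.94-fold, and SUSD2, a surface protein, had 5067, 4527 and 4360 reads against 653, 725 and 643. CEMIP, a hyaluronan-binding protein, had 12885, 12601 and 12320 reads against 2241, 2238 and 2282 and fell 5.71-fold, with little spread in either group. Of 37 mesenchymal markers and epithelial-mesenchymal transition factors 6 were listed, of which 4 rose and 1, the fibronectin gene FN1, fell (2.09-fold). Among rows with a mean of at least 50, 1 member rose and 1 fell. COL1A2 and COL3A1, also counted below as fibroblast markers, were among those that rose. Summed, they had 0 to 10 reads in the oeCTRL libraries. The receptor kinase AXL (16030, 14813 and 14775 reads against 43731, 41375 and 43705) rose 2.77-fold. SPARC had 35, 15 and 12 reads against 123, 58 and 73 and missed the threshold in 4 of the 6 fits without 1 library. ZEB2, a repressor of CDH1, had 68, 28 and 38 reads against 182, 75 and 75 and missed the threshold. Collagens, laminins and integrins went in both directions, with 11 of 106 listed, 4 that rose and 7 that fell, or 4 that fell without oeCTRL replicate 2 and 2 with relative log expression.

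**Figure D2:**
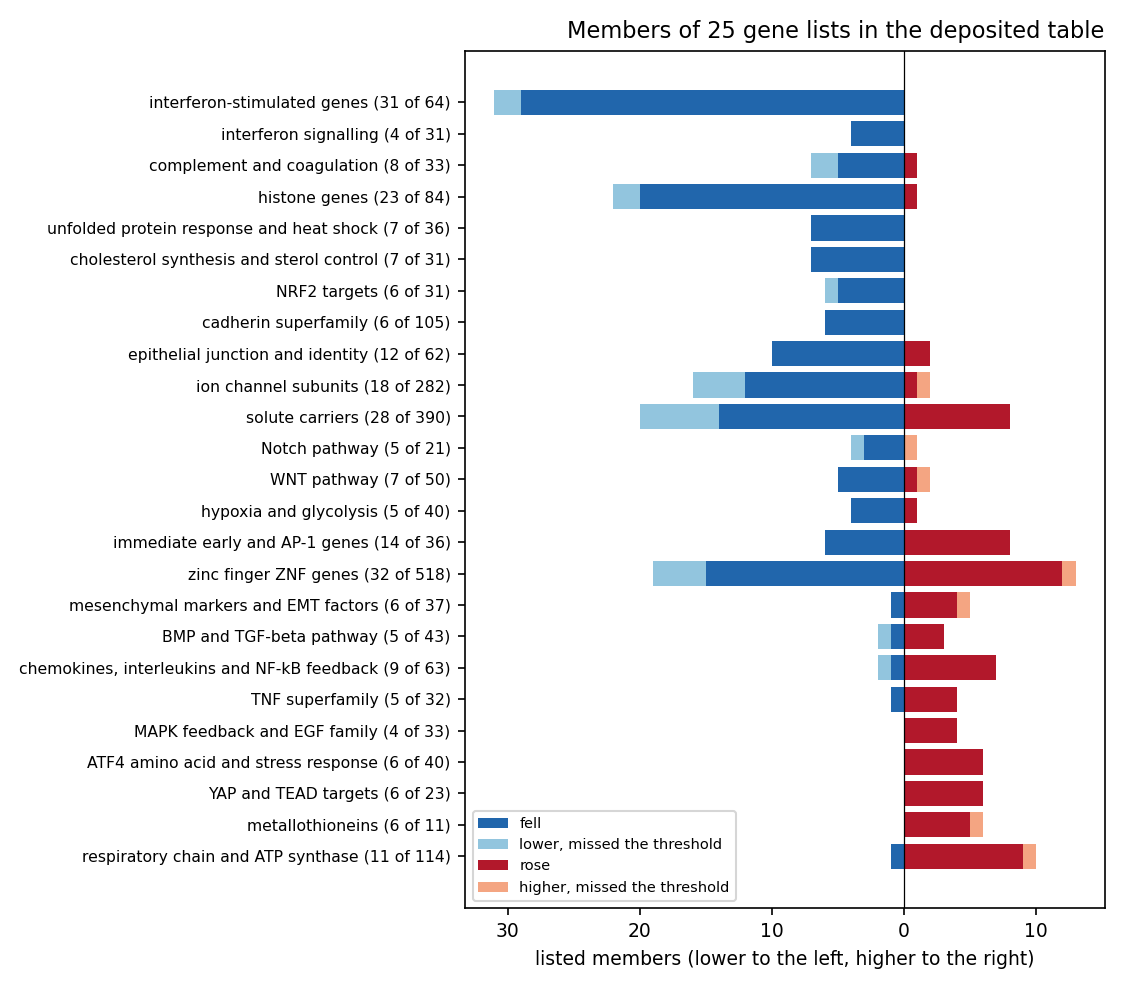
Bars count the listed members of 25 gene lists, lower to the left and higher to the right, with pale colours for members that missed the threshold and, in brackets, listed members of all members. Interferon-stimulated genes (29 fell), histone genes (20 fell, 1 rose) and chaperones (7 fell) lie to the left, and metallothioneins (5 rose), the YAP and TEAD list (6 rose) and the ATF4 list (6 rose) to the right.

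Targets of YAP and its DNA-binding partners the TEAD factors, which respond to cell shape and density, were higher. Of 23 list members 6 were in the table, and all 6 rose, also in each fit without 1 library and under each scaling. CCN1 (ENSG00000142871), a matrix-associated signalling protein, had 13504, 12776 and 12877 oeCTRL reads against 37626, 36984 and 36579 oeATOH8 reads, and rose 2.78-fold (log2 fold change 1.48, SE 0.04, edgeR adjusted p = 2.15e-09). CCN2 (1345, 1235 and 1142 against 4159, 3929 and 4366), its relative, rose 3.28-fold. Both groups were tight, and they did not overlap for either gene, as in 99.6% of all listed rows. FJX1 rose 3.61-fold, the muscle ankyrin repeat gene ANKRD1 2.37-fold and the kinase gene NUAK2 2.02-fold. The sixth member was AXL.

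Immediate early genes, which are switched on within minutes of a growth stimulus, split into 2 sets of opposite direction. Of 36 members 14 were listed, 8 rose and 6 fell, and all 14 calls held in each fit without 1 library. FOS (ENSG00000170345), an AP-1 subunit, had 2358, 2164 and 2404 oeCTRL reads against 212, 206 and 228 oeATOH8 reads and fell 11.0-fold (log2 fold change -3.45, SE 0.08, edgeR adjusted p = 1.90e-09). Its relative FOSB (661, 698 and 813 against 96, 90 and 133) fell 6.99-fold. The orphan nuclear receptor gene NR4A2 (2105, 1920 and 1976 against 346, 278 and 330) fell 6.43-fold. The other receptors of that family fell too, NR4A1 2.61-fold and NR4A3 2.09-fold, as did ZFP36, which speeds the decay of AU-rich messages (2.58-fold). In the other direction, FOSL1, the AP-1 subunit FRA1, had 5819, 5607 and 5423 reads against 16662, 14934 and 15144 and rose 2.72-fold. MYC (4297, 3874 and 4029 against 11552, 11341 and 10743) rose 2.70-fold, KLF2 2.97-fold, KLF10 2.31-fold, KLF4 2.08-fold and MAFF 2.37-fold, and CCN1 and CCN2 are on this list too. The groups did not overlap for any of these genes, as in 99.6% of all listed rows.

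Growth factor signalling genes were listed in both directions. The feedback regulators of MAPK signalling and the EGF family had 4 of 33 members listed, and all 4 rose. They were SPRY4 (769, 843 and 720 reads against 2719, 2578 and 2716, 3.36-fold), the phosphatase genes DUSP5 (2.29-fold) and DUSP8 (2.26-fold), and HBEGF, an EGF receptor ligand (2.66-fold). Among 120 genes of the FGF, VEGF, PDGF, ephrin and semaphorin families 19 were listed, 5 rose and 10 fell. Without any 1 of the oeCTRL libraries 4 fell, without oeATOH8 replicate 3 or with TMM 6, and with relative log expression 2. EPHA2 (ENSG00000142627), an ephrin receptor kinase, had 8481, 7632 and 7390 oeCTRL reads against 31062, 30847 and 31888 oeATOH8 reads, and rose 3.91-fold. Other receptors of its family fell, EPHB3 with 124, 100 and 106 reads against 25, 6 and 37 and EPHA1 with 42, 42 and 59 against 7, 14 and 13. Both lost their call without any 1 of the oeCTRL libraries. FGFBP1, which releases FGF from the matrix, fell 10.8-fold (277, 236 and 254 against 25, 15 and 33) and FLRT3, an FGF receptor partner, 13.4-fold (80, 136 and 84 against 11, 6 and 6).

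Cytokine genes were mostly higher. Of 63 chemokines, interleukins and NF-kB feedback genes 9 were listed, 7 rose and 1 fell. IL24 (ENSG00000162892), a cytokine of the IL-10 family, had 443, 447 and 438 oeCTRL reads against 2848, 3002 and 3442 oeATOH8 reads, and rose 6.84-fold (log2 fold change 2.77, SE 0.09, edgeR adjusted p = 1.76e-08). IL11 rose 4.07-fold (761, 490 and 555 against 2538, 2375 and 2557) and LIF 2.25-fold (5462, 5298 and 5309 against 12205, 12204 and 12534). IL11, LIF and IL6 all signal through gp130, and IL6 moved the other way. IL6 had 1099, 1072 and 962 reads against 202, 243 and 196 and fell 4.98-fold. NFKB1, which encodes the p105 and p50 subunit of NF-kB, rose 2.12-fold and TRAF1 2.45-fold, while CXCL6 had 121, 149 and 102 reads against 35, 61 and 52 and missed the threshold.

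In the TNF superfamily 5 of 32 members were listed, and 4 rose and 1 fell. TNFSF15 (TL1A) had 10, 15 and 14 reads against 141, 144 and 119 and rose 10.1-fold. TNFRSF12A, the TWEAK receptor, had 3319, 3062 and 2737 reads against 9342, 9040 and 9986 and rose 3.05-fold, LTB rose 2.96-fold and TNFRSF1B 2.19-fold. TNFSF9, the ligand of 4-1BB, fell 2.80-fold. Regulators of apoptosis moved in both directions. BCL2L1 (8114, 7866 and 8018 against 18420, 17613 and 17510), which encodes the anti-apoptotic BCL-xL, rose 2.18-fold, and BCL2L11, which encodes the pro-apoptotic BIM, fell 2.86-fold. BBC3 (PUMA) rose 2.10-fold and BCL2A1 fell 2.34-fold, and these calls were lost in 4 and 5 of the 6 fits without 1 library. CASP9, the initiator caspase of the mitochondrial route, fell 2.08-fold.

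Target genes of ATF4 were higher. ATF4 is the transcription factor of the integrated stress response, which follows amino acid shortage and other stresses. Of 40 members 6 were listed and all 6 rose, also in each fit without 1 library and under each scaling. STC2 (17124, 16796 and 17440 reads against 40549, 39467 and 42128), a secreted glycoprotein, rose 2.33-fold. PPP1R15A (GADD34), which restores translation after the stress, had 4743, 4765 and 4960 reads against 14258, 13749 and 12680 and rose 2.75-fold. TRIB3 rose 2.09-fold, SESN2 2.25-fold, CEBPB 2.02-fold and the amino acid carrier gene SLC43A1 2.45-fold. The groups did not overlap in any of the 6, as in 99.6% of all listed rows. Their median GC content was 59.2%, and 42.0% of all listed genes of 55% to 60% GC were higher. GADD45B, a stress sensor upstream of p38 and JNK, had 990, 1004 and 1039 reads against 5107, 5068 and 4911 and rose 4.87-fold, and its relative GADD45A rose 2.85-fold. Of 20 targets of p53, which DU145 is known to carry in mutant form, 7 were listed, 5 rose and 2 fell. TP53INP1 (980, 981 and 1095 against 125, 158 and 159) fell 7.06-fold and SESN1 2.38-fold. TXNIP, which binds thioredoxin and restrains glucose uptake, rose 3.68-fold (417, 350 and 391 against 1661, 1229 and 1463).

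**Figure D3:**
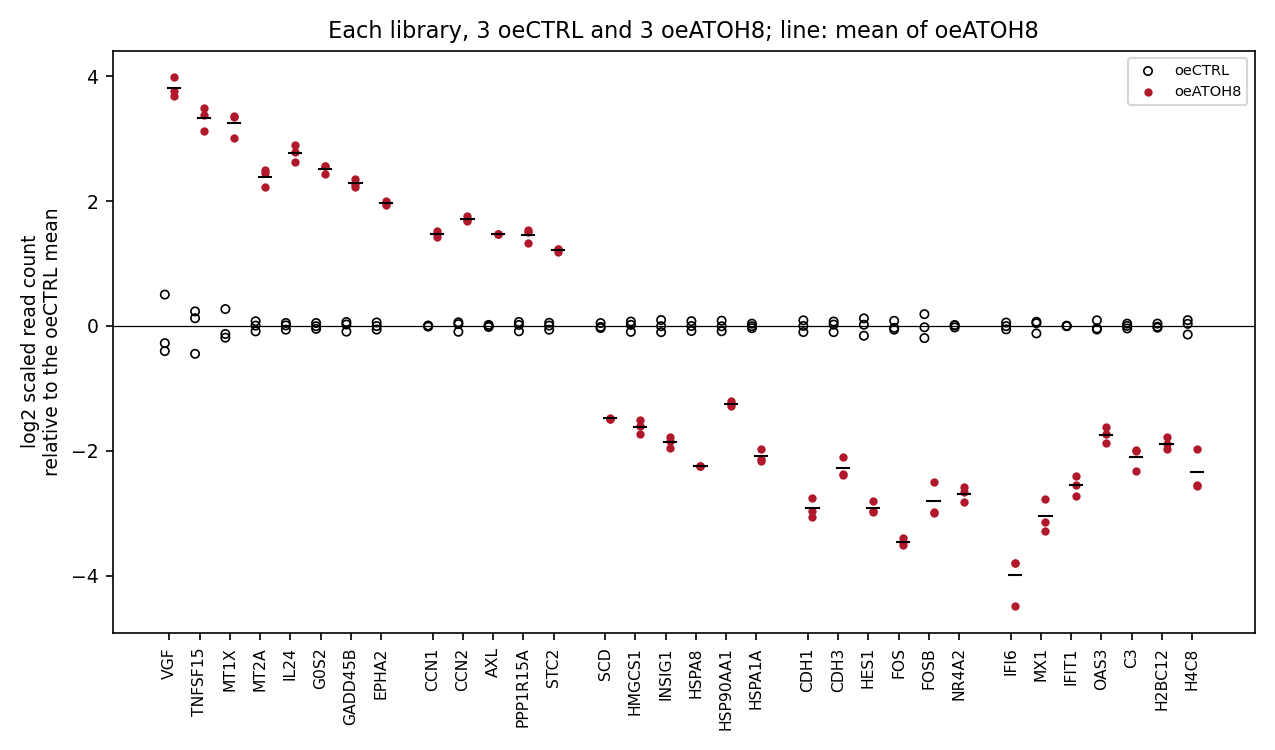
Each point is 1 library, as the log2 of its scaled read count over the oeCTRL mean of that gene, with open circles for the 3 oeCTRL and filled circles for the 3 oeATOH8 libraries of each of 32 genes. In every gene shown, as in 99.6% of all listed rows, the 3 oeATOH8 libraries lie to one side of the 3 oeCTRL libraries. The changes run from VGF (14.1-fold higher) to IFI6 (15.9-fold lower).

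Metallothioneins, cysteine-rich metal-binding proteins whose genes are induced by zinc through MTF1, stand in a cluster on chromosome 16, and 6 of 11 were listed, all higher. Of these 5 rose and 3 stayed called without any 1 library. MT2A (ENSG00000125148) had 3706, 3103 and 3330 oeCTRL reads against 19705, 18079 and 16395 oeATOH8 reads, and rose 5.24-fold (log2 fold change 2.39, SE 0.07, edgeR adjusted p = 1.50e-08). MT1X (119, 107 and 148 against 1313, 1267 and 1043) rose 9.49-fold and MT1E (1783, 1587 and 1926 against 9035, 8010 and 8142) 4.65-fold. In these 3 genes every oeATOH8 library was well above every oeCTRL library. MT1A had 48, 43 and 44 reads against 137, 129 and 102, and MT1F 85, 75 and 90 against 176, 155 and 183. MT1A lost its call in 4 and MT1F in all 6 of the fits without 1 library, and MT1M missed the threshold. With libraries scaled to equal totals 3 members rose. The MT1 genes are close copies of each other, so their reads can be split between them. The promoters of MT2A and MT1X, the only members with a promoter entry, are shown with the letters of the metal response element, TGCACNC or TGCGCNC on either strand, in capitals.
MT2A promoter, chr16:56608334-56608583 (+ strand): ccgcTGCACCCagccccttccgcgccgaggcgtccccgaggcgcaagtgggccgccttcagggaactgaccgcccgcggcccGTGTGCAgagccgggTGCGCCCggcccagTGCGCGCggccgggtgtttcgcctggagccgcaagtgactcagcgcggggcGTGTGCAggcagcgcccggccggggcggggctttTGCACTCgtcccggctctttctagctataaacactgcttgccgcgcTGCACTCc
MT1X promoter, chr16:56682290-56682453 (+ strand): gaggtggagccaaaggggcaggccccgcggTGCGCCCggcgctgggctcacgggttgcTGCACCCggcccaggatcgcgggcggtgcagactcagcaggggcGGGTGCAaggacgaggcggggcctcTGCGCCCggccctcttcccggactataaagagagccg
MT2A held 7 matches and MT1X held 4 in the stretches shown, and 29.3% of all 27305 promoters hold at least 1.

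Other factors of the helix-loop-helix class were listed in both directions. Of 34 proneural and E-protein factors only LYL1 was listed, with 46, 57 and 74 reads against 128, 167 and 118, and it missed the threshold. Among 16 inhibitory or repressor factors 4 were listed. HES1 (ENSG00000114315), a Notch-induced repressor, had 1216, 1222 and 1015 oeCTRL reads against 152, 146 and 171 oeATOH8 reads and fell 7.52-fold (log2 fold change -2.91, SE 0.11, edgeR adjusted p = 7.07e-08). BHLHE40, a repressor of the circadian and hypoxia systems, fell 6.09-fold (1864, 1830 and 1758 against 260, 335 and 317). ID3, which sequesters E-proteins and is a classic BMP target, rose 3.25-fold (873, 749 and 738 against 2585, 2738 and 2481), and HES7 rose 3.23-fold. For all 4 the groups did not overlap, as in 99.6% of all listed rows.

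Developmental signalling pathways had members in both directions. Of 43 genes of the BMP and TGF-beta pathway 5 were listed, counting ATOH8 itself. SMAD7, an inhibitor of both arms, rose 2.48-fold (373, 336 and 339 reads against 881, 772 and 1003), and NOG, a secreted BMP antagonist, rose 6.46-fold (15, 32 and 11 against 118, 149 and 117), or 9.83-fold without oeCTRL replicate 2. The co-receptor gene TGFBR3 fell 2.32-fold, and BMP4 had 123, 70 and 89 reads against 56, 32 and 30 and missed the threshold. Of 21 Notch pathway genes 5 were listed and 3 fell, NOTCH3 from 2348, 1874 and 1860 reads to 769, 723 and 827. Without any 1 of the oeCTRL libraries, and with relative log expression, 1 of the 3 fell. Of 50 WNT pathway genes 7 were listed. The negative-feedback targets NKD1 and AXIN2 fell 3.34-fold and 2.82-fold, the receptor gene FZD7 fell 2.29-fold and the antagonist SFRP1 2.82-fold, while another antagonist, DKK1, rose 2.51-fold (1923, 1915 and 1936 against 5071, 4748 and 5016). AXIN2 kept its call in only 1 of the 6 fits without 1 library. Of the 5 WNT genes that fell, 3 did so without any 1 of the oeCTRL libraries, without oeATOH8 replicate 1 or with TMM, and 1 with relative log expression.

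HMGA2, a DNA-bending protein of embryonic and tumour cells, rose 4.42-fold (262, 208 and 232 reads against 1009, 1073 and 1076) and its relative HMGA1 2.91-fold (19631, 18485 and 18384 against 59147, 55828 and 52714). VGF (ENSG00000128564), a neuropeptide precursor, rose 14.1-fold from 120, 60 and 66 reads to 1336, 1027 and 1151. The dopamine transporter gene SLC6A3 fell 13.0-fold (473, 462 and 425 against 10, 48 and 48). Neural and neuroendocrine genes had 5 of 62 listed, 2 rose and 3 fell. Homeobox genes had 7 of 137 listed, 3 rose and 3 fell, or 1 fell without oeCTRL replicate 1, oeCTRL replicate 3 or oeATOH8 replicate 3 and with TMM or relative log expression. Of these, HOXA13, which patterns the distal limb and genital tract, fell 9.59-fold (100, 123 and 148 against 19, 7 and 14), and PITX1 rose 2.86-fold. REC8, a meiotic cohesin, fell 8.73-fold, AOC3, an amine oxidase, 8.48-fold, and F13A1, the factor XIII subunit A gene, 6.30-fold.

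Respiratory chain and ATP synthase genes were mostly higher. Of 114 members 11 were listed, 9 rose and 1, the assembly factor gene COX16, fell, and 10 calls held in all 6 fits without 1 library. CYC1, the cytochrome c1 gene of complex III, had 2855, 2573 and 2593 reads against 5711, 5852 and 6590 and rose 2.22-fold. ATP5ME rose 2.95-fold, UQCC3 2.49-fold, NDUFB10 2.31-fold and NDUFS8 2.29-fold. None of the 13 transcripts of the mitochondrial genome was listed. Of 86 ribosomal protein genes 4 were listed and all rose, RPS2 from 23653, 22379 and 22406 reads to 54005, 50711 and 50733. The few cell cycle genes named here were higher, and their number is to be read beside the 5.77% of all protein-coding genes that were listed. The mitotic genes CDC20 (2.38-fold), PLK1 (2.05-fold) and UBE2C (2.94-fold) were the 3 of 37 listed and rose, PKMYT1, the kinase that restrains CDK1, rose 3.80-fold, and UHRF1 was the 1 of 40 DNA replication genes. None of 15 cell cycle inhibitors and D cyclins was listed.

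Large families of membrane proteins and zinc finger factors were in the table in both directions. Ion channel subunits had 18 of 282 listed, 1 rose and 12 fell, with KCNJ5-AS1, an antisense gene that matched by name, among the lower. CACNA1G, a T-type calcium channel, fell 5.80-fold, and KCNH1, a potassium channel, was the one that rose (2.26-fold). Solute carriers had 28 of 390 listed, 8 rose and 14 fell, and G protein-coupled receptors and regulators 19 of 245, 5 rose and 10 fell. The carriers include SLC2A4RG, a regulator gene that rose, and SLC22A18AS, an antisense gene, which matched by name. Of the receptors 2 rose without oeCTRL replicate 1, 1 without oeCTRL replicate 2 or 3, 3 without oeATOH8 replicate 1, 2 without oeATOH8 replicate 3 and 0 with equal totals. Of the carriers 9 fell without oeCTRL replicate 3, and 5 rose with equal totals. With relative log expression 3 channels, 2 carriers, 3 receptors and 1 of the ZNF genes below fell. ZNF genes had 32 of 518 listed, 12 rose and 15 fell, with ZNF598, which senses collided ribosomes, rising 2.84-fold. None of 59 actin, myosin and tropomyosin genes was listed.

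Globin genes rose in a pattern of their own, and they are genes of red blood cells. HBB (ENSG00000244734) had 0 reads in each oeCTRL library and 24191, 1411 and 5593 reads in oeATOH8 replicates 1, 2 and 3. With the control group set to its detection limit of 3 counts in all, HBB was at least 10023-fold higher. Leaving out oeATOH8 replicate 1 lowered this limit to 3400-fold. HBA1 had 2, 3 and 2 reads against 17402, 927 and 4008, and HBA2, its near-identical copy, 11, 4 and 2 against 15069, 803 and 3605. All 3 were highest in oeATOH8 replicate 1 and lowest in oeATOH8 replicate 2, and HBB had 0.745, 0.816 and 0.735 reads per alpha-globin read in the 3 libraries. HBA1 was 3065-fold and HBA2 1125-fold higher, or 1022-fold and 384-fold without oeATOH8 replicate 1. Globin reads were 2.54%, 0.151% and 0.601% of the listed reads in oeATOH8 replicates 1, 2 and 3 and at most 0.00081% in oeCTRL. Of 12 red blood cell markers the other 9 (among them ALAS2, AHSP and SLC4A1) were not listed, and neither was any of 15 macrophage and neutrophil or 12 lymphocyte markers.

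**Figure D4:**
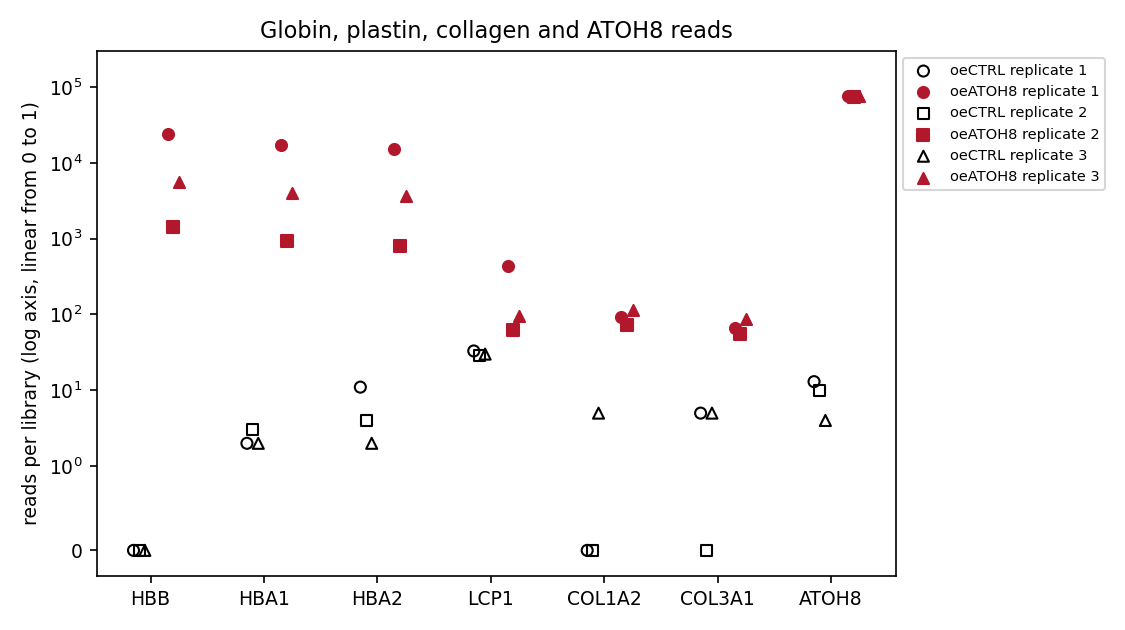
Points are reads in each library on a log axis (linear from 0 to 1), open for oeCTRL and filled for oeATOH8, with a shape for each replicate. The globins and LCP1 are highest in oeATOH8 replicate 1 and lowest in oeATOH8 replicate 2. COL1A2 and COL3A1 are highest in oeATOH8 replicate 3, and ATOH8 lies between 72569 and 76508 reads in the 3 oeATOH8 libraries.

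Markers of other cell types were also looked for among the listed genes. Of 12 fibroblast and smooth muscle markers COL1A2 (0, 0 and 5 reads against 92, 72 and 114) and COL3A1 (5, 0 and 5 against 67, 55 and 88) were listed and rose, and summed they had 0 to 10 reads in oeCTRL and 127 to 202 in oeATOH8. COL1A1, DCN, LUM and PDGFRA were not listed. Of 12 endothelial markers ROBO4 (180, 170 and 126 against 606, 581 and 614) was listed and rose 3.71-fold. LCP1, a plastin of blood cells that some tumour lines also make, had 33, 29 and 30 reads against 433, 63 and 96 and missed the threshold. The part of other cell types in the oeATOH8 libraries was not tested. Without oeATOH8 replicate 1, the library with the most globin reads, 1108 rows passed, of which 1078 also passed with all libraries. Between the oeATOH8 libraries the chi-square per degree of freedom was 13.0 to 39.8 with the globins and 7.53 to 10.7 without them, and it was 6.34 to 9.24 in oeCTRL, where counting error alone gives 1.

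Direction went with read count and with base composition. Higher genes had a median scaled read count of 829 and lower genes of 171, at median lengths of the longest transcript of 2362 and 3822 bases. Of the 310 listed genes with a mean count of at least 1000, 209 were higher and 101 lower, and of the 295 with a mean under 100, 55 were higher and 240 lower. The median GC content was 58.7% for higher and 50.4% for lower genes. With a mean count of at least 1000, 91.6% of genes of 60% GC or more were higher (98 of 107), and 24.1% of genes under 50% GC (20 of 83). With a mean count under 100 the corresponding shares were 19.4% (12 of 62) and 18.8% (21 of 112). These are descriptions across genes, which are not independent replicates, and the part of base composition, length or read count in any result above was not tested. The groups named as lower were partly AT-rich, with a median GC content of 45.04% for the listed interferon-stimulated genes, 45.2% for the chaperones and 48.0% for the histone genes, and of those named as higher the respiratory chain genes had 57.9% and the YAP and TEAD targets 52.7%.

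By chromosome, 14 stood out for its share of lower genes. Of 613 protein-coding genes on chromosome 14, 41 were listed, 3 higher and 38 lower (92.7%, against 60.2% of all listed Ensembl genes), at a median GC content of 50.5%. FOS, HSP90AA1, HSPA2, IRF9, REC8, EGLN3 and BMP4 are among the lower ones, and NKX2-8, PLEKHG3 and TRMT61A are the 3 higher. Chromosome 21 had 9 of 10 listed genes lower and chromosome 2 had 44 of 57. Chromosomes 20 and 16 had the smallest shares, with 12 of 30 and 26 of 61 listed genes lower. Chromosome 19 had the most listed genes, 128 of 1472 (8.70%), 64 in each direction.

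**Figure D5:**
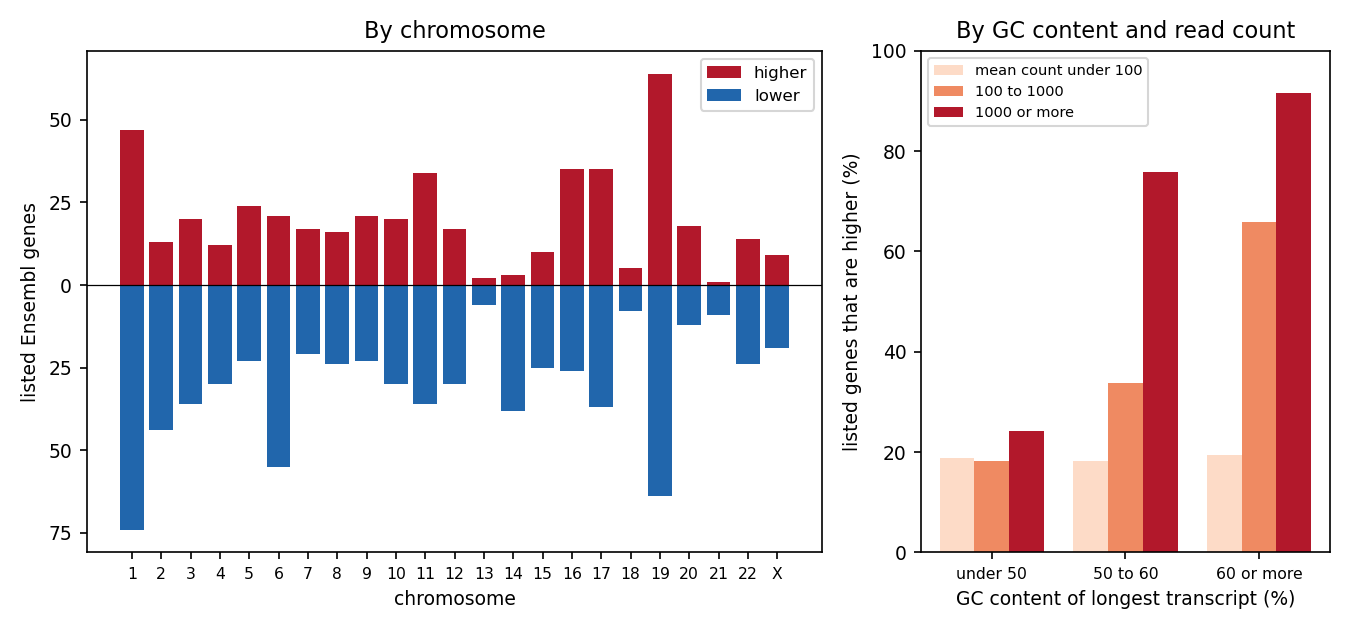
Left, listed Ensembl genes by chromosome, higher above the line and lower below it. Right, the percentage of listed genes that were higher, by GC content of the longest transcript and mean scaled read count, with 3 higher and 38 lower genes on chromosome 14 and a share of 91.6% in the class of highest GC content and read count.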

How the data were processed

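Total RNA for the 3 oeCTRL and 3 oeATOH8 libraries was isolated with TRIzol, and a sequencing company prepared them, per the labels' protocols. The submitters' processing notes name fastp, HISAT2, StringTie and DESeq2, with no versions or roles, and the build hg38 (GRCh38). The deposited table holds raw read counts per gene, per the file headers, for genes the authors called changed. Its NC columns were taken for oeCTRL and its OE columns for oeATOH8. Strandedness, and whether the replicates were separate cultures, are not given in the sources used here, so p-values measure only the spread between these samples, which may be technical. Reads over listed rows were 1508188 to 1605910 in oeCTRL and 2083678 to 2226518 in oeATOH8. These sums are not library depths.

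Of 1152 Ensembl identifiers 1146 matched the gene names given, 1137 of them with a symbol, and positions came from GENCODE v29. Counts were fitted with edgeR 4.0.16 (quasi-likelihood F test, two-sided, R 4.3.3) with no filter. Within each group, median ratios across the listed rows gave the scale of a library. Before the groups were set against each other, log2 ratios of -0.97 to 1.03 did not occur, and the empty stretch was then centred on 0, reaching 1.00 to either side, which assumes that the authors' fold limits were symmetric. The next widest gap was 0.16. Benjamini-Hochberg adjustment at 0.05 counted 62700 annotated genes and 12504 assembled loci as tests, and was also made over listed rows alone. Printed adjusted p-values are the former. Fold changes are ratios of group means of scaled counts. Printed reads are as deposited, standard errors are the log2 fold change over the square root of F, and a group at 0 was set to a floor of 3 counts over the group. The fit was tried on simulated counts in which most rows were unchanged and the scale of each library was given. That did not test the scaling between groups.

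Promoters came from the RefSeq table (GRCh38.p14), matched by symbol and, where a gene has several starts, by the first in the table. 876 of 1152 genes (76.0%) had an entry, so no share over the whole response is given.

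Members and gene lists were chosen with earlier results of these data known. Named genes were ATOH8, SCD and TCF3, the 30 largest increases and decreases among called genes with non-overlapping groups and a mean count of 50 or more, the 10 with the highest mean, the 10 most variable of each group and up to 10 members of each of 66 lists, in all 331, of which the text prints a part. TCF3 was not listed. Some named genes are not reported here. GPS2, AREL1 and others named for their place were picked after their values were seen. Alternatives were other scalings, filterByExpr, a mean of at least 50, DESeq2 1.42.0, limma 3.58.1 on log2(scaled count + 1), a replicate block and leaving out each library.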

Additional observations from a re-analysis of the deposited data

How the results depend on the processing

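No listed row changed direction under any scaling, and none of the 331 named genes reversed under any alternative that tested it. Since no row lay within 1.00 of 0 (log2) and the scalings moved the median by at most 0.91, a reversal by scaling was not possible. The remaining alternatives kept the scaling used here. The count of 1167 called rows became 733 with relative log expression over listed genes (589 higher and 144 lower), a scaling that takes listed genes as unchanged on balance. It was 1203 with totals, 1072 with TMM, 1167 with filterByExpr, 1302 with DESeq2, 1168 with limma and 1075 of 1286 rows with a mean of at least 50. Leaving out each library in turn gave 919 to 1108 called rows, or 1417 to 1423 adjusted over listed rows alone, and 872 rows were called in all 6 of these fits. In them scale factors were kept from the full set. Samples of the same replicate number had deviations that correlated at 0.041, 0.053 and 0.074, and each oeCTRL library correlated best with its own number. With 3 libraries per group these low values cannot decide whether the numbers pair the samples. With the replicate number as a block 1182 rows were called, 512 higher and 670 lower. Of the 304 named genes called, 262 stayed so without any 1 library. Depth is unknown, and the 82 lower and 11 higher Ensembl genes with a mean under 50 are the least certain.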

Other observations

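Listed genes often stood next to each other. Runs of at least 4 listed genes, each within 150 kb of the next, numbered 33, of which 8 held only lower and 4 only higher genes. On chromosome 1, 149782689 to 149886652 (GRCh38), 8 of 8 listed genes fell, histone genes such as H2BC18, H4C14, H3C15 and H2BC21. On chromosome 6, 26031650 to 26453415, 12 of 12 fell, again histone genes but also the butyrophilin genes BTN3A1 and BTN3A3. On chromosome 12, 112906777 to 113136239, the run of OAS1, OAS3 and OAS2 went on into DTX1 and RASAL1, and all 5 fell. DTX1, a Notch-associated ubiquitin ligase, had 38, 39 and 37 reads against 12, 8 and 7. The other 21 runs held genes of both directions. These runs are a description of the listed genes, with no test.

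A few genes rested on very few reads or on 1 library. SYS1-DBNDD2, a readthrough locus, had 2, 11 and 1 oeCTRL reads against 69, 126 and 150 oeATOH8 reads, 23.8-fold higher, or 76.8-fold without oeCTRL replicate 2. ENSG00000283765 had 0 reads in each oeCTRL library and 84, 452 and 106 in oeATOH8, at least 214-fold higher by the same limit, or at least 91.3-fold without oeATOH8 replicate 2. COL4A5, a basement membrane collagen, had 97, 67 and 99 reads against 0, 12 and 6 and fell 14.6-fold, or 30.4-fold without oeATOH8 replicate 2. ADGRB1, an adhesion receptor, had 54, 36 and 37 against 5, 0 and 2 and fell 18.8-fold, or 43.9-fold without oeATOH8 replicate 1.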
